A study of Homo sapiens with 2 samples.

Results

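MDA-MB-436 is a triple-negative breast cancer line, that is, a line without the hormone receptors and without amplified HER2, known for the loss of RB1 and for a BRCA1 mutation. It is described here by 2170 cells of the 17605 barcodes of the series. These are the barcodes with the suffix 6, in which the multiplexing oligo CMO304 had the highest count. They carried 1000 or more gene UMIs (unique molecular identifiers, counts of captured transcript molecules) from 500 or more genes, with no more than 20% of UMIs from mitochondrial genes, and CMO304 made up 80% or more of their oligo UMIs. Of 2858 barcodes with the suffix, 530 failed the limits on genes, UMIs or mitochondrial share (529 of them the last) and 158 failed the oligo limit alone. The labels do not tie an oligo to a line. The name rests on elimination within its pool and on the markers given below, which were chosen with earlier results of these data known.

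Cultures of 6 breast cancer lines were each stained with an oligo of their own and mixed into 2 pools of 3 lines, which were captured separately by droplet-based 3′ RNA sequencing. MDA-MB-436, at the fourth passage, shared its pool with HCC38 and Hs578T, both triple-negative, and the other pool held the triple-negative MDA-MB-231 and the luminal lines BT-474 and MDA-MB-453. No line was treated or edited, and each was 1 culture in 1 capture, so there were no replicates. No test across samples was possible, no p-value is given, and all intervals below are exact 95% intervals that cover counting error only.

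The protein made from RB1 holds E2F transcription factors in check until cyclin-dependent kinases phosphorylate it, and p16, made from CDKN2A, inhibits CDK4 and CDK6 upstream of it. Cells that lack RB1 protein are known to tolerate high p16 levels. Interleukin-1, made in cells such as macrophages and some tumour cells, acts through its receptor on the NF-kB transcription factors, which switch on chemokine, adhesion and survival genes. Cancer-testis antigens such as the MAGE-A proteins are normally made in germ cells and are often switched on in tumours.

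The line held 74.3 M UMIs. Its median cell had 30522.5 UMIs from 5836.5 genes, of which 7.51% were mitochondrial. The other 5 groups, filtered in the same way, held 68.9 M to 91.9 M UMIs, with medians of 20274 to 38173 UMIs and mitochondrial shares of 5.88% to 14.6%. They are called by the line whose markers they led, followed by "-like". The suffix shared 9 barcode sequences with suffixes of the other pool and none within its own pool. In the pool of MDA-MB-436, Scrublet called 1.73% of barcodes as doublets, and it called 10 of the 2170 cells. In 18 cells the genes specific to a pool mate reached 25% of that mate's own level. These cells were kept, and results that rest on them are given with and without them.

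Cells near the limits were compared once. The 160 cells with CMO304 at 80% to 85% had MAGEA4 at 629 CPM (UMIs scaled to a common library total) and RB1 at 9.03 CPM. The 87 barcodes just outside, at 75% to 80%, had 614 and 13.1 CPM. Cells with a mitochondrial share of 18% to 20%, 14 in number, had MAGEA4 at 418 CPM, and the 9 barcodes at 20% to 22% had 401 CPM. The 529 barcodes left out above 20% held a median of 5113 UMIs, of which 55.8% were mitochondrial.

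The markers of the line were checked first. The marker lists were chosen with earlier results of these data known. The counts are therefore a description, not independent support for the name. It was the highest of the 6 groups in 6 of 6 of its own markers, in 0 of 10 markers of HCC38, in 0 of 10 of Hs578T, in 0 of 11 of BT-474 and MDA-MB-453 and in 1 of 7 of MDA-MB-231, the collagenase gene MMP1. RB1, which is not among the markers but was also known beforehand to be low here, was lowest in the line. Of 16 immune cell markers, 7 had 0 UMIs in the line, among them CD2 and CD3E of T cells, and the B cell gene CD79A, PTPRC of all leukocytes and LYZ of myeloid cells had 7, 1 and 1 UMIs. CD68, a lysosomal gene of macrophages that tumour cells also express, was the only measured member at 65.5 CPM, against 0.798 to 32.1 CPM elsewhere. Of 13 endothelial and fibroblast markers, CDH5 and TEK had 0 UMIs. Their summed level was 106 CPM in the line, 1081 CPM in the Hs578T-like group and 26.1 to 107 CPM in the others.

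MAGEA4, a cancer-testis antigen gene on chromosome X (GRCh38, 151912509 to 151925170, plus strand), had the largest ratio to the next group with 1 CPM added to both values. It was at 678 CPM in MDA-MB-436 (95% interval 672 to 684), and at 6.58 CPM in the HCC38-like and 6.60 CPM in the Hs578T-like group. The BT-474-like, MDA-MB-231-like and MDA-MB-453-like groups had 0 UMIs, and 3 UMIs would be at most 0.0435 CPM there. The line was therefore 103-fold above the next group (93.8 to 113), and the only groups with any UMI were those of the same capture. Thinned to 10000 UMIs per cell, 99.1% of 2097 cells held a MAGEA4 UMI, against 5.81% of the HCC38-like and 4.73% of the Hs578T-like cells. Without thinning the shares were 98.7%, 17.3% and 19.7%, at medians of 30522.5, 34303.5 and 38173 UMIs. A like low share in both pool mates was also seen for IL13RA2, at 0.67% and 0.88% of thinned cells, and whether free RNA in the droplets gave these UMIs was not tested. MAGEA4 is overlapped by MAGEA4-AS1 on the other strand, as the annotation gives it.

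CDKN2A (chromosome 9, 21967753 to 21995301, minus strand), which encodes p16 and ARF, was at 126 CPM in the line (123 to 128). The MDA-MB-453-like group had 23.2 CPM, the BT-474-like group 11.6 CPM, the Hs578T-like group 3.88 CPM, the HCC38-like group 1.46 CPM and the MDA-MB-231-like group 0.538 CPM. The line was 5.43-fold above the next group (5.16 to 5.72), and 71.1% of its thinned cells held a UMI (92.7% unthinned). Reads at the 3′ end cannot tell the p16 transcript from that of ARF, and the gene overlaps CDKN2B-AS1. MTAP, a methionine salvage enzyme gene next to CDKN2A, was at 46.4 CPM in the line and at 0.355 to 31.1 CPM elsewhere.

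UCHL1, a neuronal deubiquitinase gene (chromosome 4, 41256413 to 41268455, plus strand), was at 535 CPM, close above the HCC38-like group at 444 CPM and far above the other groups at 0.0856 to 8.60 CPM. Its share of cells after thinning was 93.1% in the line and 94.2% in the HCC38-like group, so this marker was as frequent in a pool mate. PRAME, another cancer-testis antigen gene (chromosome 22, 22547701 to 22559361, minus strand), was at 83.6 CPM, against 34.6 CPM in the Hs578T-like, 33.4 CPM in the HCC38-like and at most 0.0435 CPM in the other groups. IL13RA2, the decoy receptor of interleukin-13 (chromosome X, 115003975 to 115019977, minus strand), was at 81.6 CPM, with 1.08 CPM the next value. IL1B, the gene of interleukin-1 beta (chromosome 2, 112829751 to 112836903, minus strand), was at 221 CPM and 20.9-fold (19.4 to 22.5) above the 10.6 CPM of the Hs578T-like group.

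**Figure D1:**
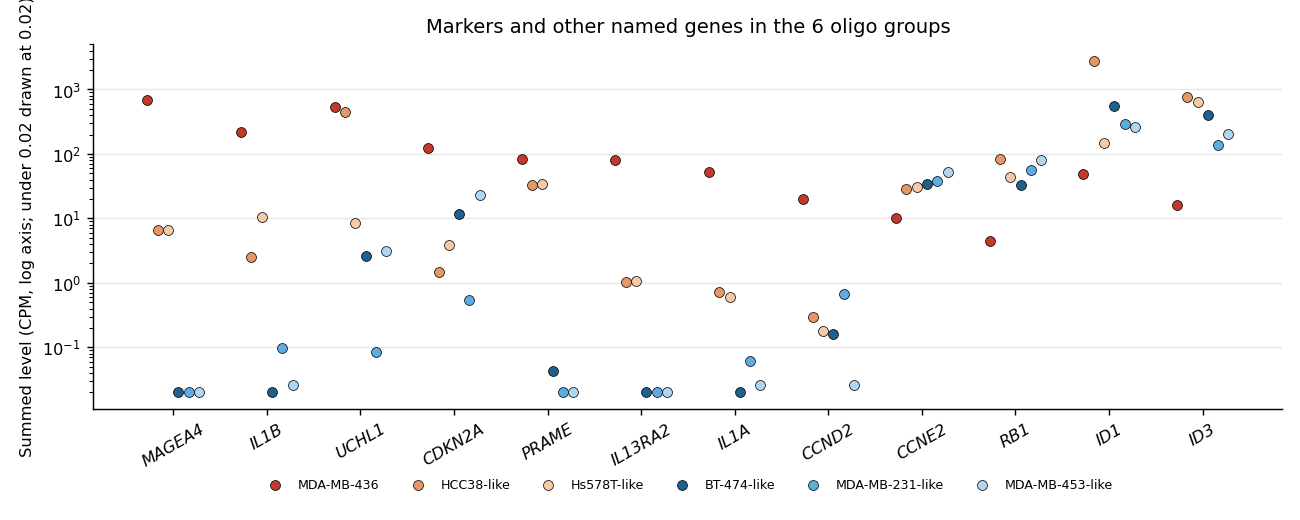
Summed levels of the markers, RB1 and 5 other named genes in the 6 groups, in CPM on a log axis, with 1 point per group and values under 0.02 CPM drawn at 0.02. MDA-MB-436 lies above all other groups for its 6 markers, with the HCC38-like group near it for UCHL1, and below all others for RB1 at 4.48 CPM.

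Of 10919 genes measured, meaning at 10 CPM or more in some group, 76 were at least 4-fold above the next group, or 0.696%, with 1 CPM added to both values. Of these, 62 code for proteins, 18 were at 50 CPM or more in the line, and all 76 were also 4-fold above both pool mates. Against the pool mates alone, 127 of 9954 genes, or 1.28%, were at least 4-fold above both. The next group was in the same pool for 56 of the 76. Of the genes at 50 CPM or more, IL1A, which encodes interleukin-1 alpha, was at 51.6 CPM and at most at 0.729 CPM elsewhere, a ratio of 70.8 (55.6 to 91.5). SOD2, the mitochondrial superoxide dismutase and an NF-kB target, was at 404 CPM in the line and between 15.9 and 58.1 CPM in all others.

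TM4SF19, a gene of the tetraspanin-like TM4 family, was at 107 CPM against at most 1.55 CPM, and C1QTNF4, a secreted C1q-related protein, at 110 CPM against at most 2.25 CPM. HRK, a BH3-only gene that promotes apoptosis, was at 74.5 CPM, with 4.19 CPM in the HCC38-like group next. IGFN1, a gene of an immunoglobulin and fibronectin domain protein, was at 163 CPM against 7.92 CPM, and the matrix gene FBLN2 at 50.6 CPM against 5.58 CPM. MAGEA10 was at 77.4 CPM, with 15.7 CPM in the HCC38-like group and at most 1.08 CPM elsewhere.

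The other genes past 4-fold at 50 CPM or more had lower ratios. SLC6A8, the creatine transporter, was at 124 CPM against 2.15 to 27.6 CPM. TRMT1, a tRNA methyltransferase, was at 108 CPM against 7.98 to 24.3 CPM, and the spindle gene HAUS2 at 137 CPM against 13.2 to 33.1 CPM. The amino acid sensor gene RRAGD was at 62.0 CPM against 0.569 to 9.0 CPM. The antisense RNAs LINC00632 and AC006329.1 were at 77.0 and 51.5 CPM, with 12.4 and 10.4 CPM the next values. A further 7 of the 25 genes with the largest ratios at this level fell short of 4-fold, at 3.48 to 3.74 with 1 CPM added. ODC1, the first enzyme of polyamine synthesis, was at 586 CPM against 28.6 to 159 CPM, and GNPDA1, which deaminates glucosamine-6-phosphate, at 201 CPM against 29.3 to 54.1 CPM. ELP5, a subunit of the Elongator complex, was at 282 CPM against 7.57 to 77.5 CPM, and it overlaps CTDNEP1 and CLDN7 on the other strand. The others were the nuclear pore gene NUP42 (92.8 CPM, next 24.5), the vesicle gene RAB3B (121 CPM, next 34.0), the sialyltransferase gene ST6GALNAC4 (57.8 CPM, next 15.2) and PI3 of the elastase inhibitor elafin (50.8 CPM, next 12.8).

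Fewer genes lay below all other groups. At least 4-fold below the lowest of them were 21 of the 10919 genes, or 0.192%, and 18 of these were also that far below both pool mates, where 137 of 9954 genes, or 1.38%, were. In 3 of the 21 the lowest other group was at 50 CPM or more. SRA1, a gene known both for a coactivator RNA and a protein (chromosome 5, 140537340 to 140558252, minus strand), was at 4.35 CPM in the line and at 54.0 to 134 CPM elsewhere, 12.4-fold below the lowest (11.1 to 14). ID3, an inhibitor of basic helix-loop-helix factors and a target of BMP signalling, was at 16.4 CPM, while the MDA-MB-231-like group had 137 CPM and the HCC38-like group 777 CPM. YWHAZ, the 14-3-3 zeta gene, was at 125 CPM against 793 to 1388 CPM. SRA1 overlaps ANKHD1 and EIF4EBP3 on the other strand.

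Of the 15 genes furthest below among those at 50 CPM or more in the lowest other group, the remaining 12 lay less than 4-fold under it. ID1, a paralog of ID3, was at 48.9 CPM against 149 CPM in the Hs578T-like and 2809 CPM in the HCC38-like group. The antiproliferative gene BTG1 was at 23.7 CPM and between 93.3 and 111 CPM in all others. DSTN, an actin-severing protein, was at 280 CPM against 781 to 2445 CPM. The translation factor EIF4A2 was at 65.3 CPM against 174 to 248 CPM. NBN, a member of the MRE11 complex of DNA repair, was at 26.4 CPM against 61.4 to 114 CPM. The others, CDK2AP2, ZFP36L1, SMDT1, C6orf62, SMIM26, CPNE3 and MAP3K13, were at 24.1 to 57.6 CPM and 2.35-fold to 3.69-fold below the lowest other group.

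RB1 (chromosome 13, 48303726 to 48599436, plus strand) was at 4.48 CPM in the line (4.01 to 4.99). The BT-474-like group had 33.0 CPM, the Hs578T-like group 43.5 CPM, the MDA-MB-231-like group 56.3 CPM, the MDA-MB-453-like group 81.1 CPM and the HCC38-like group 82.8 CPM. The line was 7.36-fold below the lowest of these (6.56 to 8.28), and after thinning 4.48% of its cells held a UMI (12.6% unthinned), against 27.8% to 55.0% in the other groups. The RB1 level was 5.41% of that in the HCC38-like and 10.3% of that in the Hs578T-like group. Genes specific to these pool mates were at 1.41% and 2.45% of their levels in the line. Without the 18 cells with pool mates' genes, RB1 was at 4.10 CPM and those genes were at 1.21% and 1.81%. RB1 overlaps LPAR6 and RCBTB2 on the other strand, and a 3′ count does not show whether a full transcript or protein is made.

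Most measured genes around RB1 did not share its level. ITM2B, a membrane protein gene just upstream, was at 75.5 CPM, 2.14-fold below the lowest other group. SUCLA2, a subunit of succinyl-CoA synthetase, was at 34.2 CPM against 34.0 to 84.8 CPM, and MED4, a Mediator subunit, at 43.8 CPM against 42.2 to 93.1 CPM. FNDC3A, EBPL and KPNA3 also lay within the range of the other groups. Of 12 measured genes of the region, RB1 included, RB1 and ITM2B were at least 2-fold below the mean of the other groups.

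Lists of genes were described by the ratio of the line to the mean of the other 5 groups, as log2 of CPM plus 1. Over all 10919 genes, 1060 were at least 2-fold higher, or 9.71%, and 2249 at least 2-fold lower, or 20.6%, with a median of -0.18. Of 27 measured genes of the RB pathway, 3 were higher and 7 lower, with a median of -0.50. Higher beside CDKN2A were the CDK inhibitor gene CDKN1C, at 31.6 CPM against at most 17.3 CPM, and CCND2, which encodes cyclin D2, at 20.1 CPM against at most 0.673 CPM. Lower were RB1, the E2F partner gene TFDP2 (15.8 CPM against 27.5 to 82.0), the cyclin gene CCNE2 (10.1 CPM against 28.5 to 53) and CCND1 of cyclin D1, at 328 CPM against 379 to 914 CPM. CDKN1A, which encodes p21, was at 9.75 CPM, between the 8.51 CPM of the MDA-MB-453-like group and the 49.2 CPM of the MDA-MB-231-like group. TFDP1, the other E2F partner, was at 124 CPM against at most 88.5 CPM, and its ratio of 0.98 fell just short of 2-fold. CDK4 was at 122 CPM, inside the 105 to 168 CPM of the others.

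The cell division lists lay near the whole table. Of 42 G1/S genes 0 were higher and 4 lower (median -0.09), and of 43 G2/M genes 2 were higher and 4 lower (median -0.23). Of 39 genes of homologous recombination and the Fanconi pathway 1 was higher, SLFN11, a DNA damage effector at 20.01 CPM beside 18.3 CPM in the HCC38-like group, and 5 were lower, among them NBN. BRCA1 itself was at 30.2 CPM, inside the range of 22.6 to 52.1 CPM of the other groups. Of 25 measured genes of the p53 list, 4 were higher and 6 lower (median -0.13).

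The list of interleukin-1 and NF-kB genes had the highest share of higher members among the lists with 20 or more measured genes. Of 31 measured genes 16 were at least 2-fold higher and 3 lower, with a median of 1.05, and the line was the highest of the 6 groups in 15. Against the pool mates alone, 12 were higher and 7 lower, with a median of 0.46. Over all 9954 genes of that comparison, 1018 were higher and 2060 lower, with a median of -0.17. IL1B and IL1A led with log2 ratios of 5.93 and 5.36. CCL20, a chemokine gene, was at 12.9 CPM against at most 0.664 CPM, ICAM1, an adhesion receptor, at 22.9 CPM against at most 4.31 CPM, and TNFAIP3, the NF-kB feedback inhibitor A20, at 41.2 CPM against at most 17.4 CPM. RELB and NFKB2, of the noncanonical branch, were at 42.4 and 23.4 CPM against at most 20.6 and 13.6 CPM. NFKB1 (26.1 CPM) and NFKBIA (41.2 CPM) lay inside the range of the other groups. IL1R1, the receptor, was the lowest of the 6 groups at 6.83 CPM against 7.63 to 237 CPM, and IL11 was at 3.07 CPM, where the MDA-MB-231-like group had 63.5 CPM. The leukocyte gene PTPRC and the myeloid genes LYZ and TYROBP had 1, 1 and 0 UMIs in the line.

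**Figure D2:**
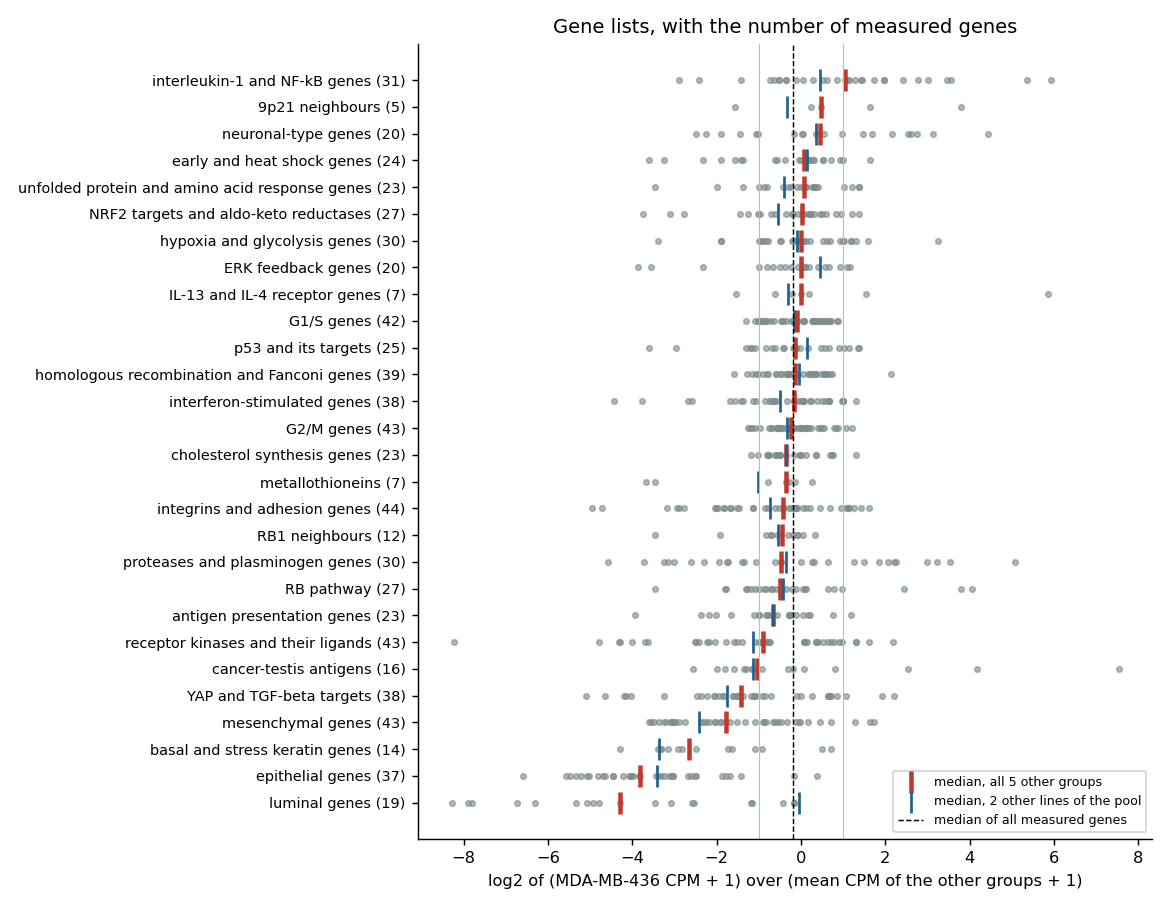
For each gene list, the log2 ratio of MDA-MB-436 to the mean of the other 5 groups (CPM plus 1), with grey points for genes, red bars for the median, blue bars for the median against the 2 pool mates and a dashed line for the median of all measured genes. The interleukin-1 and NF-kB list has a median of 1.05, and the epithelial and luminal lists have medians of -3.82 and -4.30.

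Cell identity genes were mostly below the mean of the other groups. Of 37 epithelial genes 0 were higher and 35 lower, with a median of -3.82 (-3.42 against the pool mates). The keratin gene KRT19 was at 11.7 CPM beside 9.85 CPM in the Hs578T-like group and 536 to 2547 CPM in the other 4 groups. KRT18, at 719 CPM, lay inside the range of 247 to 1499 CPM. Of 14 basal and stress keratin genes 11 were lower (median -2.65), and of 19 luminal genes 16 were lower (median -4.30), but against the pool mates the luminal median was -0.04. Of 43 mesenchymal genes 26 were lower and 3 higher, with a median of -1.78. The 3 were the transcription factor genes ZEB2 (46.7 CPM) and TWIST2 (29.2 CPM) and the protease gene FAP (18.7 CPM), and in each the Hs578T-like group was higher, at 54.9, 32.2 and 32.0 CPM. The mesenchymal list summed to 28028 CPM in the Hs578T-like group, 6566 CPM in the MDA-MB-231-like group and 4681 CPM in the HCC38-like group. Its sum was 3840 CPM in the line, above the 654 CPM of the BT-474-like group and the 322 CPM of the MDA-MB-453-like group. In 0 of the 43 genes was the line the lowest group. VIM, the vimentin gene, was below the mean of the pool mates by a log2 ratio of -1.09.

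Targets of TGF-beta, BMP and YAP were mostly lower. Of 38 measured genes 24 were lower and 3 higher, with a median of -1.43, and the line was the lowest group in 11. BMP4, a BMP ligand, was at 0.673 CPM against 5.18 to 199 CPM, and ID2 at 6.88 CPM against 13.6 to 385 CPM, beside ID1 and ID3 above.

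Proteases and their inhibitors went both ways, with 10 of 30 higher and 13 lower. MMP1 was at 39 CPM and MMP3, stromelysin, at 12.4 CPM, against at most 0.541 and 0.666 CPM. The lysosomal protease gene CTSL was at 587 CPM against 5.35 to 168 CPM, and the inhibitor TIMP1 at 1079 CPM against 11.5 to 588 CPM. TIMP3 was at 12.8 CPM, where the Hs578T-like group had 572 CPM and the BT-474-like group 2.42 CPM. CST6, the cystatin gene, was at 2.15 CPM against 235 CPM in the HCC38-like group.

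Of 16 measured cancer-testis antigen genes 3 were higher (MAGEA4, MAGEA10 and PRAME) and 8 lower, and 21 of the 57 listed had 0 UMIs in the line. CTAG2 was at 0.511 CPM against 38.7 CPM in the Hs578T-like group. Of 20 neuronal-type genes 8 were higher and 6 lower. CRMP1, a growth cone gene, was at 25.3 CPM against at most 0.446 CPM, and L1CAM, a neural adhesion gene, at 44.0 CPM against at most 11 CPM. BEX1 was at 95.9 CPM beside 49.2 CPM in the HCC38-like group. Beside IL13RA2, IL4R of the interleukin-4 receptor was the highest of the groups at 20.5 CPM, with 15.7 CPM in the Hs578T-like group. Of 43 receptor kinase and ligand genes 4 were higher and 18 lower. EREG, an EGF receptor ligand, was at 104 CPM with 68.6 CPM in the HCC38-like group next, and IGFBP5 was at 2.03 CPM against 36.3 to 3416 CPM. Of 30 hypoxia and glycolysis genes 7 were higher and 3 lower, and the glucose transporter gene SLC2A3 was at 28.3 CPM against at most 8.88 CPM.

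The cells of the line also differed among themselves. With each cell thinned to 10000 UMIs, which left out 73 cells, the variance over the mean (Fano factor) would be 1 for counting noise alone. The median gene had 1.08, and 301 of the 9873 genes found in 5% or more of the cells, or 3.05%, reached 2. They held 60 ribosomal protein genes, 10 mitochondrial genes, 7 histone genes and 14 genes of the G2/M list. The highest factors were those of the nuclear RNA MALAT1 at 49.8, the mitochondrial MT-CO2 at 32.3 and the ferritin gene FTL at 26.0, and the other ferritin gene, FTH1, had 23.9. Without the 18 cells with pool mates' genes, 269 of the 301 genes stayed at 2 or more. Without the 2 small clusters described below, 248 of them did.

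The 18 cells carried the variation of several mesenchymal genes. TAGLN, a smooth muscle actin-binding gene, had a Fano factor of 18.3 with them and 1.46 without them, and POSTN, the periostin gene, 8.42 and 1.19. The same held for COL1A1 (3.54 and 0.997), THY1 (3.52 and 1.15) and ACTA2 (4.38 and 1.17). It also held for KRT19 (3.32 and 1.04), which is an epithelial gene. VIM, by contrast, had 5.75 with these cells and 5.60 without them.

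The markers of the line varied to different degrees. MAGEA4 was found in nearly every cell, with a median of 7 UMIs per thinned cell, a 90th percentile of 11, a highest value of 22, and 0.858% of cells at 0, for a Fano factor of 1.54. CDKN2A had a mean of 1.27 UMIs and a factor of 1.10, and PRAME 0.841 UMIs and 1.09, both near counting noise. UCHL1 had a median of 5 and a highest value of 29, with a factor of 2.6. IL13RA2 had 0 UMIs in 66.9% of cells, a 99th percentile of 8 and a factor of 3.72.

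IL1B was far more uneven. It was at 0 in 48.5% of cells, with a median of 1, a 90th percentile of 6, a 99th percentile of 22 and a highest value of 110 UMIs, and its Fano factor was 10.9. The 95 cells over 10 UMIs made up 4.53% of cells, and the top 21 cells held 15.1% of its UMIs. Of 28 tested genes of the interleukin-1 and NF-kB list 8, IL1B included, reached 2, among them the chemokine genes CXCL8 at 6.18 and CCL20 at 3.17 and SOD2 at 5.88. Of the lists with no member at 2 or more, 0 of 25 RB pathway genes, 0 of 43 G1/S genes, 0 of 40 homologous recombination genes and 0 of 8 cancer-testis antigen genes did so, which is near the 3.05% of all genes for lists of this size.

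TIMP1 had a median of 7 and a highest value of 282 UMIs and a factor of 17.6. Of 5 metallothionein genes, which bind zinc and copper, 4 reached 2, led by MT1X at 16.7 and MT2A at 11.5. Of 26 interferon-stimulated genes 6 did. IFIT3 had a factor of 9.55, with 58.3% of its UMIs in the top 21 cells, whereas BST2 (tetherin, which holds virus particles at the cell surface) had 5.97, with 77.0% of cells at 0 and a 90th percentile of 5. The chaperone gene HSPA5 (6.18) and the stress factor ATF3 (5.48) led 6 of 24 genes of the unfolded protein and amino acid response. G0S2, a lipolysis inhibitor, had 12 and 60.6% of its UMIs in the top 21 cells, and the snoRNA host RNA SNHG12 10.5 and 45.7%.

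**Figure D3:**
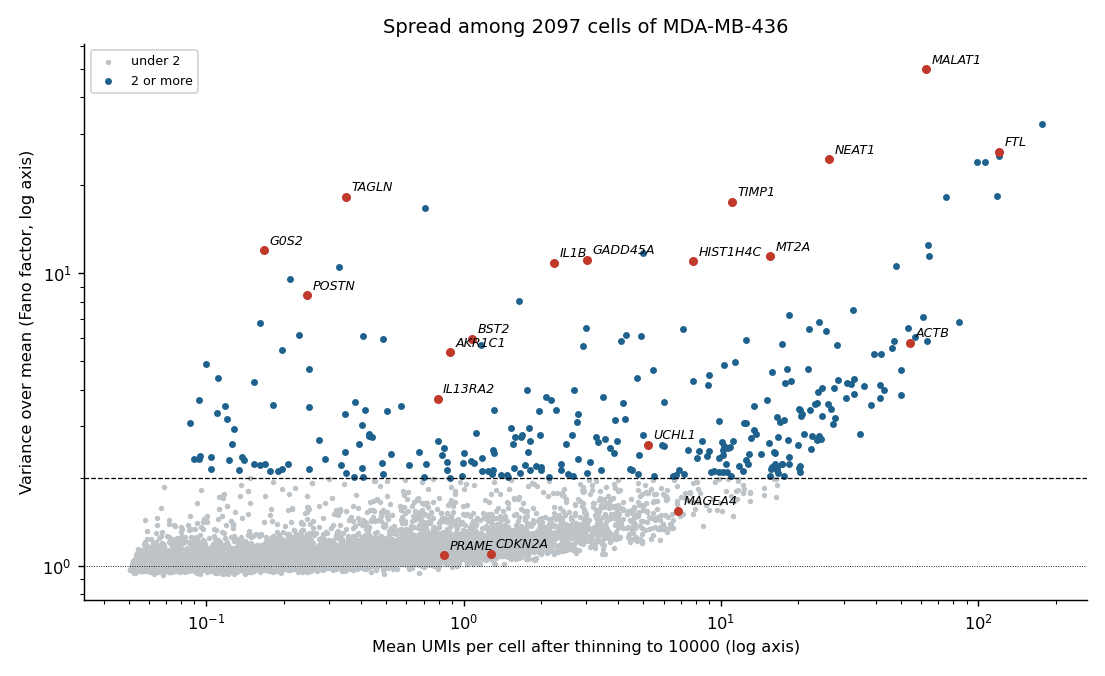
Mean UMIs per cell and Fano factor of each tested gene over the 2097 cells of MDA-MB-436 thinned to 10000 UMIs, both axes logarithmic. IL1B (10.9), TIMP1 (17.6) and BST2 (5.97) lie above the threshold of 2, and MAGEA4 (1.54) and CDKN2A (1.10) below it.

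Across the 2097 thinned cells, which share 1 library, BST2 correlated with HMGB1 (Pearson r of 0.45 on ln of 1 plus counts), RPS20 (0.43), MGST2 (0.34), RPS7 (0.33) and ECHS1 (0.32), and inversely with RPL13 (-0.46) and PPIA (-0.43). AKR1C1, an aldo-keto reductase and NRF2 target, correlated with the thioredoxin gene TXN (0.39) and with BHMT2 (0.36). UCHL1 correlated with PPIA (0.34), RPL13 (0.33), TXN (0.32) and TIMP1 (0.31). No gene reached 0.3 with IL1B, IL13RA2 or PRAME, the highest value for IL1B being 0.23 with SERPINB2. These values are descriptions, with no test.

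Clustering gave 4 large clusters and 2 small ones, and their leading genes, which come from the same cells, are a description. Cluster 1 held 577 cells (26.6%), cluster 2 566 (26.1%), cluster 3 549 (25.3%) and cluster 4 381 (17.6%), with median depths of 26753 to 34840 UMIs. Cluster 5 held 81 cells (3.73%) and cluster 6 16 cells (0.74%).

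Clusters 1, 3 and 4 differed in genes of the cell cycle. In cluster 1, 29 of 41 G2/M genes were at least 2-fold lower than in the line's other cells, where 1.31% of all genes were, and TOP2A was at 38.7 CPM against 224 CPM. Its leading genes were MMP1, at 65.0 CPM against 31.3 CPM, and CYP1B1, at 87.4 CPM against 45.7 CPM. Only 1 of 6162 genes, MMP1, was at least 2-fold higher. The other cells include cluster 2, where MMP1 and CYP1B1 were at 6.09 and 7.33 CPM. Cluster 3 was led by histone genes, among them HIST1H1A at 126 CPM against 26.6 CPM and HIST1H4C at 1485 CPM against 589 CPM. Cluster 4 was led by mitotic genes, among them ARL6IP1 at 834 CPM against 186 CPM, the kinase gene PLK1 at 253 CPM against 67.0 CPM and the cyclin gene CCNB1 at 530 CPM against 159 CPM, and 32 of 43 G2/M genes were at least 2-fold higher, where 1.06% of all genes were.

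Cluster 2 was led by BST2. Its BST2 level was 359 CPM, against 19.7, 12.8 and 18.8 CPM in clusters 1, 3 and 4. EPB41L3, a membrane skeleton gene, was at 36.2 CPM against 2.44 CPM in the line's other cells, CCND2 at 46.8 CPM against 10.7 CPM, the glutathione transferase gene MGST2 at 34.0 CPM against 7.86 CPM, DKK1, a Wnt antagonist, at 158 CPM against 58.1 CPM and RELB at 78.3 CPM against 29.8 CPM. Genes counted here were at 20 CPM or more in cluster 2 or in the line's other cells. Of 18 interferon-stimulated genes, 6 were at least 2-fold higher and 1 lower, with a median log2 ratio of 0.59. Of all genes, 0.529% were higher and 1.94% lower. Some members passed this limit only through cluster 2, as ISG20 and IFIT3 below did, so the counts are a description only. Among listed genes at any CPM, SAMD9L, EPSTI1, SP110 and MX1 were at 0.156, 0.284, 0.289 and 0.345 of their level in the other cells. ISG20, an exonuclease, was at 31.5 CPM against 8.64 CPM and IFIT3 at 39.9 CPM against 13.8 CPM. Lower in cluster 2 were CDA, cytidine deaminase, at 5.84 CPM against 79.8 CPM, CYP1B1 at 7.33 CPM against 72.0 CPM, the homeobox gene HOXA7 at 3.15 CPM against 32.2 CPM and MMP1 at 6.09 CPM against 50.6 CPM. MKI67, a proliferation gene, was at 231 CPM in cluster 2 and at 67.2, 171 and 330 CPM in clusters 1, 3 and 4.

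The promoters of BST2, ISG20 and IFIT3 are shown because these interferon-stimulated genes are among the 10 leading genes of cluster 2. IFIT3 was also 3.00-fold higher in cluster 5, and whether the 3 were high in the same cells was not tested. Each run is 300 bases around the RefSeq transcription start (GRCh38.p14), 5′ to 3′ on the strand of the gene, and capitals mark matches to the interferon-stimulated response element, searched on both strands as GAAA, any 2 bases and GAAA again. They lie at chr19:17405581-17405880 (minus strand), chr15:88638766-88639065 (plus strand) and chr10:89327747-89328046 (plus strand).
BST2: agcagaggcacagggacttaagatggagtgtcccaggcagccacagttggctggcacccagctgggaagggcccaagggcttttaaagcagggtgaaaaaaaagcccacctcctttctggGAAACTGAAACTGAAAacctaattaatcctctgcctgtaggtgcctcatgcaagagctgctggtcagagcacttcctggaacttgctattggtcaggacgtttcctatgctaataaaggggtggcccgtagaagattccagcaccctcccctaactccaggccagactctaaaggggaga
ISG20: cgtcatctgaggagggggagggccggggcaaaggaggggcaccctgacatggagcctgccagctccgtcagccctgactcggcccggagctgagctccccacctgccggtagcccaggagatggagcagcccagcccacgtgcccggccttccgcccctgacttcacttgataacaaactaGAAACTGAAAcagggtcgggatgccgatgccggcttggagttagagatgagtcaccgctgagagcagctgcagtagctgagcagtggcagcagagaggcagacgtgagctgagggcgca
IFIT3: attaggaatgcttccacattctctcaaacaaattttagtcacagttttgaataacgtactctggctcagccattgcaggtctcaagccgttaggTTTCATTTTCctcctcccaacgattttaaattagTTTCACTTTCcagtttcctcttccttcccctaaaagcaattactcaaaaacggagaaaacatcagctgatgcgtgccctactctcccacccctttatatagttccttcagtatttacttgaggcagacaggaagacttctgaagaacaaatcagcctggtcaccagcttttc
BST2 held 2 overlapping matches that begin 130 and 124 bases before the start, ISG20 held 1 at 69 bases and IFIT3 held 2 at 156 and 122 bases. The motif was in 996 of 27305 promoters of this length, or 3.65%, and in 21 of 30 measured interferon-stimulated genes with a promoter in the table, or 70.0%. A match is a description of the letters, and binding was not measured.

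Markers of the line were spread over the clusters in unequal shares. The share of thinned cells with a BST2 UMI was 67.0% in cluster 2 and 7.09%, 4.44% and 8.02% in clusters 1, 3 and 4 (unthinned 74.6%, 10.6%, 10.7% and 12.6%). IL13RA2 ran the other way, with 11.5% in cluster 2 and 44.5%, 40.6% and 39.3% in the others, and its level was 28.3 CPM in cluster 2 and 118, 93.8 and 98.6 CPM in clusters 1, 3 and 4. UCHL1 was at 295 CPM in cluster 2 and 622, 638 and 622 CPM in clusters 1, 3 and 4. MAGEA4 was found in 99.3% to 99.8% of the cells of all 4 clusters, and CDKN2A in 68.2% to 73.7%. IL1B was at 320 CPM in cluster 1, 199.6 CPM in cluster 2, 250.4 CPM in cluster 3 and 117 CPM in cluster 4. RB1 was at 2.86 to 4.80 CPM in these 4 clusters.

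**Figure D4:**
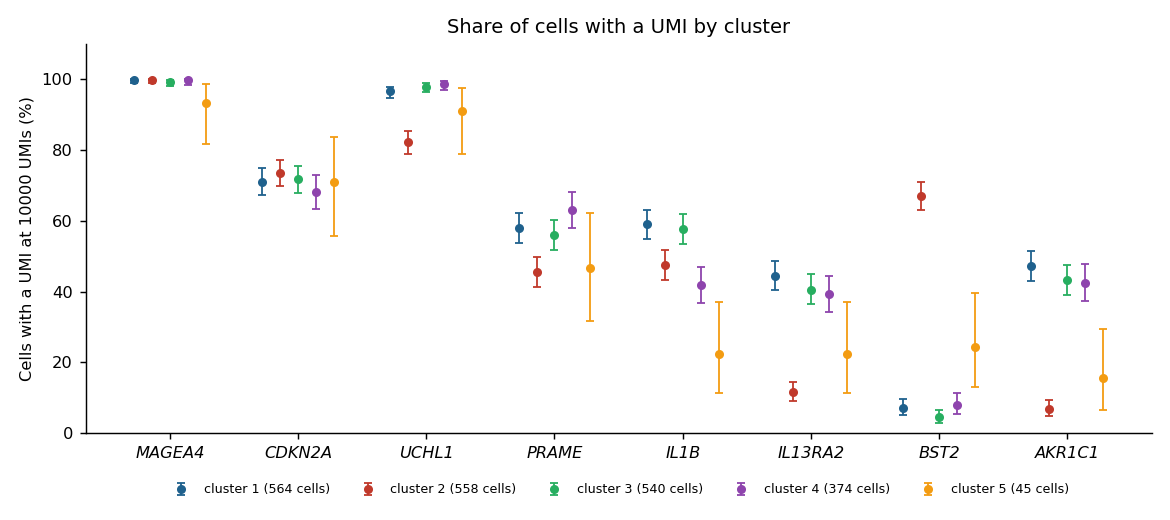
Share of cells with a UMI of each marker of the line, of BST2 and of AKR1C1 in clusters 1 to 5 of MDA-MB-436. Shares are in percent after thinning to 10000 UMIs, with exact 95% intervals. BST2 is highest in cluster 2 (67.0%), where IL13RA2 is lowest (11.5%), and MAGEA4 is near 100% in the 4 large clusters.

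Some of the differences of cluster 2 lay together on the chromosomes. In 127 windows of 20 Mb with at least 20 genes, the log2 ratio of cluster 2 to clusters 1, 3 and 4 was taken relative to the median of all genes. The window median was within 0.2 of it in 102 windows and 0.4 or more away in 16. BST2, EPB41L3, CCND2 and CDA lie in windows near it, with medians of 0.08, 0.09, -0.14 and 0.10. AKR1C1, at 7.90 CPM in cluster 2 against 108 CPM in the line's other cells, lies in a window with a median of -0.32. PXDN, which was higher in cluster 2, and PRRX1, which was lower, lie in windows with medians of 0.45 and -0.57. On chromosome 7 between 20 and 40 Mb, all 39 genes lay below that median (100%), with a window median of -0.92, and HOXA7, NT5C3A and RP9 are in this window. On chromosome 2 between 220 and 240 Mb, 38 genes had a window median of -0.87, also with 100% below. On chromosome 1 between 160 and 180 Mb, 61 genes had -0.57 with 100% below, and on chromosome 16 between 0 and 20 Mb 104 genes had -0.57 with 96.2% below. In the other direction, 30 genes on chromosome 2 between 0 and 20 Mb had 0.45 with 96.7% above, and 20 genes on chromosome 5 between 20 and 40 Mb had 0.46 with 90% above. The DNA content of these cells was not measured.

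Cluster 2 kept most of its cells under other settings. Of its 566 cells, 553 lay in 3 clusters made mostly of them at 2 times the resolution, 284 of them in the largest, 556 with Scrublet doublets left out, and 553 of 565 without the cells with pool mates' genes. With a stricter cell filter it was 514 of 528, in 2 clusters. The chromosome 7 window kept a median between -0.92 and -0.90 in all 4. Clusters 1 and 3 did not stay apart with the stricter cell filter. There, 391 of 407 cells of cluster 1 and 408 of 417 of cluster 3 lay in a cluster made mostly of neither. Under the other settings each had a cluster made mostly of its own cells.

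**Figure D5:**
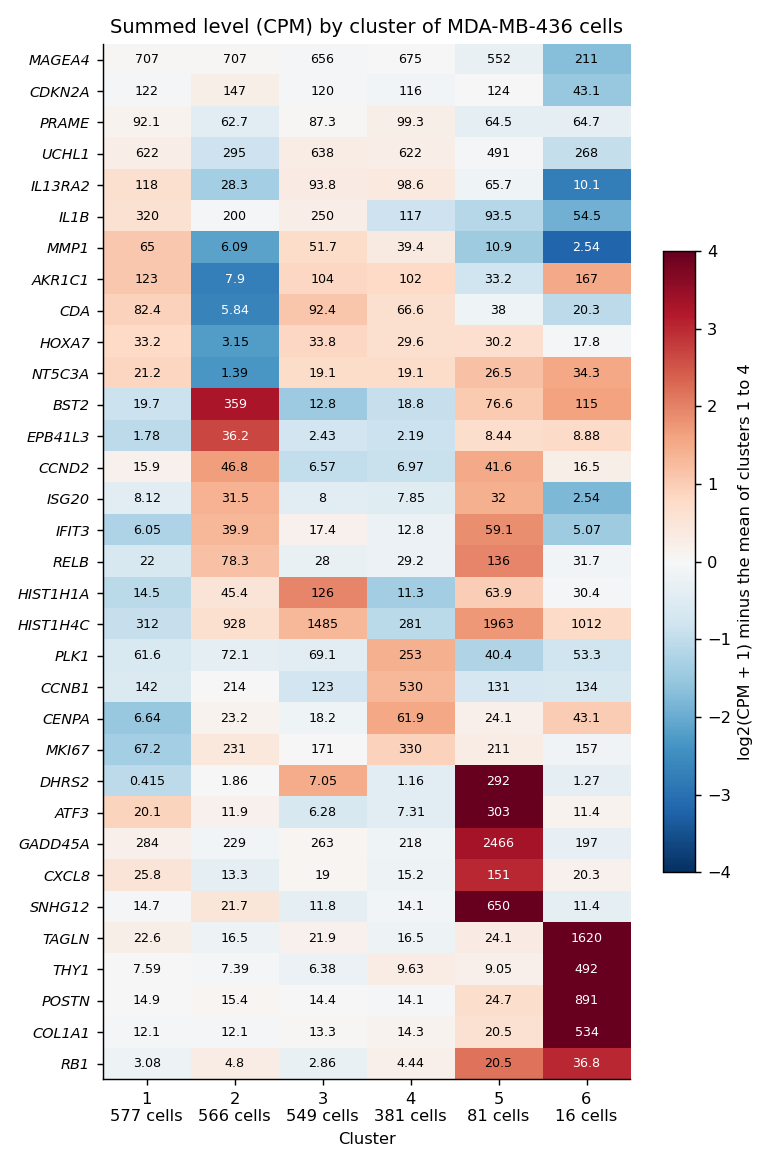
Summed levels of markers and cluster genes in MDA-MB-436, with clusters in columns and the CPM printed in each cell. Colour gives log2 of CPM plus 1 minus its mean over clusters 1 to 4. BST2 stands at 359 CPM in cluster 2, above the 12.8 to 19.7 CPM of clusters 1, 3 and 4, and ATF3 is at 303 CPM in cluster 5.

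Cluster 5, with a median of 14451 UMIs and a mitochondrial share of 4.16%, was led by DHRS2 and HIST1H2AA. It was not a cluster of its own under each of the other settings. At 2 times the resolution its 81 cells stayed together in a cluster made mostly of other cells, with Scrublet doublets left out they lay in a cluster of 158 cells, without the cells with pool mates' genes all 80 left lay in a cluster made mostly of other cells, and with the stricter cell filter 39 of 51 lay in a cluster of 42. The dehydrogenase gene DHRS2 was at 292 CPM against 2.88 CPM in the line's other cells, SNHG12 at 650.1 CPM against 15.6 CPM and ATF3 at 303 CPM against 11.2 CPM. GADD45A, a growth arrest gene, was at 2466 CPM, 9.91-fold above the other cells, and DDIT3, the factor CHOP, at 361 CPM. Of all genes 16.2% were at least 2-fold higher in cluster 5, and the median of all genes was 0.29. Beside this, 16 of 26 interleukin-1 and NF-kB genes were higher and 1 lower (median 1.47). Of the p53 list 8 of 16 were higher (median 1.05), and of the unfolded protein and amino acid response list 11 of 22 (median 1.00). Genes counted were at 20 CPM or more in cluster 5 or in the other cells, and some, such as CXCL8 and CCL20, passed only through cluster 5. The interleukin-1 and NF-kB list held 26 such genes here and 16 or 17 in clusters 1 to 4, so the counts are a description only. CXCL8 was at 151 CPM (8.23-fold), CCL20 at 70.6 CPM (6.07-fold), TNFAIP3 at 204 CPM (5.46-fold) and SOD2 at 901 CPM (2.29-fold), while IL1B, at 93.5 CPM, was lower than in the other cells. RB1 was at 20.5 CPM from 34 UMIs, 4.98-fold above the other cells (3.39 to 7.12). The genes specific to the Hs578T-like and HCC38-like groups took a median of 0.05% and 0.04% of UMIs in its cells, against 0.03% and 0.02% in clusters 1 to 4, and their part in the RB1 level was not tested.

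The promoters of CCL20 and TNFAIP3, NF-kB genes that were higher in cluster 5, are shown in the same way, with matches to the kappaB motif in capitals, searched on both strands as GGG, any 2 bases and then TTTCC or TTCCC. They lie at chr2:227813592-227813891 and chr6:137867009-137867308, both on the plus strand.
CCL20: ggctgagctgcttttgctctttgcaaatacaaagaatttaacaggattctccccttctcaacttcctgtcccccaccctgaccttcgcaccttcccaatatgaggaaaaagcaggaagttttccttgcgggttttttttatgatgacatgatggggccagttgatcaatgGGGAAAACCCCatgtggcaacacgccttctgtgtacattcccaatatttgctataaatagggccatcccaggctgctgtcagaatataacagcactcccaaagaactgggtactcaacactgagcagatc
TNFAIP3: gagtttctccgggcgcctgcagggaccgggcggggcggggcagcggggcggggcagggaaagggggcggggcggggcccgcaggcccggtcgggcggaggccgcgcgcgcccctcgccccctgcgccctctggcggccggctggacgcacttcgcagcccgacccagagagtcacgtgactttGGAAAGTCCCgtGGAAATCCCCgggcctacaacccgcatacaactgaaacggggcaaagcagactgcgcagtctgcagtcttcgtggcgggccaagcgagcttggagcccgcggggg
CCL20 held 2 overlapping matches, 80 and 79 bases before the start, and TNFAIP3 2 separate ones, at 67 and 55 bases. The motif was in 1058 of 27305 promoters, or 3.87%, and in 10 of 25 measured interleukin-1 and NF-kB genes with a promoter, or 40.0%. The promoter windows of IL1A, IL1B, SOD2, ICAM1, CXCL8 and NFKB2 held no match to these letters. Of these, SOD2, ICAM1, CXCL8 and NFKB2 were also at least 2-fold higher in cluster 5. Genes higher in cluster 5 were thus found with and without a match.

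Cluster 6 carried the genes of a pool mate. TAGLN was at 1620 CPM against 19.6 CPM in the line's other cells, POSTN at 891 CPM, COL1A1 at 534 CPM and THY1 at 492 CPM, and MAGEA4 was at 211 CPM. In the Hs578T-like group COL1A1 was at 833 CPM and THY1 at 811 CPM. Scrublet called 9 of the 16 cells, 15 held pool mates' genes at 25% or more of the mate's level, and the median share of CMO304 was 84.5%.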

How the data were processed

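UMI counts per gene and barcode were deposited by the authors as 1 matrix made with Cell Ranger 6.1.2, per the file headers, on GRCh38, per the submitters' processing notes. These are raw counts. Settings of cell calling, oligo assignment and aggregation: not given in the sources used here. The labels' 2 samples are the gene expression and oligo libraries of this matrix. Counts were summed per suffix and divided by the total to give CPM. The 6 groups were compared by ratios with 1 CPM added, over genes at 10 CPM or more in some group. Intervals are exact Poisson, binomial (Clopper-Pearson) or conditional binomial at 95%.

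Genes named were the 25 highest and 15 lowest against the other groups at 50 CPM or more, the markers, RB1 and its neighbours, up to 2 per list in each direction, the 25 most variable, up to 4 per list by Fano factor, and 10 per cluster; a few others (such as KRT18, NFKB1, BRCA1) were chosen after their values were seen. The members and lists were chosen with earlier results of these data known. Cells were clustered with Leiden (leidenalg 0.10.2, scanpy 1.11.5, resolution 0.3, chosen after seeing the data; 2000 variable genes, 20 components, 15 neighbours). Scrublet ran per capture with an expected rate of 0.06. Lines were summed without replicates. Gene positions are from GENCODE, matched by ID for 34616 of 36601 genes. Promoters are from RefSeq. The comparison code was tested on simulated data. Alternatives are given in the closing section. Python 3.11.15, numpy 2.4.6, pandas 2.3.3, scipy 1.17.1 and edgeR 4.0.16 (scaling factors only) were used.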

Additional observations from a re-analysis of the deposited data

How the results depend on the processing

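No paired analysis was possible because each line was 1 culture with no replicates, and for the same reason no replicate could be left out. Genes at least 4-fold above the next group numbered 76, and 116 with no minimum CPM. Genes at least 4-fold below numbered 21, and 47 with a pseudocount of 0.1 CPM. Against the pool mates only, 127 genes were above and 137 below, and 201 were above with no minimum CPM. Genes with a Fano factor of 2 or more numbered 301, and 131 after thinning to 5000 UMIs and 581 after thinning to 20000 UMIs. The other 68 counts lay within 1.5 times of their main value. Of the 76 genes, 73 to 76 stayed above under the settings compared. The median of the immune marker list was 2.34 over 1 measured gene and -0.0031 with no minimum CPM. TMM scaling moved the median of all genes from -0.18 to -0.25, and the lower share of 2-fold calls from 68.0% to 72.2% (62.7% with no minimum CPM). RB1 kept a log2 ratio between -3.70 and -3.31 in all settings. Depth limits any level under 0.0404 CPM in the line, the value of 3 UMIs.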

Other observations

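Further lists were read against all measured genes, of which 9.71% lay 2-fold or more above the mean of the other groups and 20.6% as far below it. Of 23 cholesterol synthesis genes 1 was higher and 2 were lower (median log2 ratio -0.35). Of 7 metallothionein genes 0 were higher and 2 lower (median -0.36). Of 23 antigen presentation genes 1 was higher and 6 were lower (median -0.67). Of 44 integrin and adhesion genes 7 were higher and 17 lower (median -0.42). By chromosome, the median ratio of the line to the other groups was lowest on chromosome 14, at -0.68 over 369 genes, and highest on chromosome 7, at 0.30 over 514 genes.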
